A study of Mus musculus with 4 samples.

Results

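The genes described are 9 enzymes and regulators of polyamine metabolism, Odc1, Srm, Sms, Azin1, Oaz1, Oaz2, Sat1, Smox and Paox, measured as RNA in 4 microarray libraries of BA/F3 cells. Probe sets were taken where the platform annotation gave exactly 1 symbol and that symbol was a member, which found 14 of the 45037 probe sets that are not array controls. They cover 7 of the 9 genes, of 18193 genes named in this way on the array: 3 probe sets each for Odc1, Azin1 and Oaz2, 2 for Smox, and 1 each for Srm, Oaz1 and Sat1. Sms and Paox had no such probe set; 3 probe sets that carry the symbols of Sms and its pseudogene and 1 that carries those of Oaz1 and its pseudogene were left out. Of the 14, 10 had a mean log2 value of at least 4 and were tested, over 6 genes; the other 4 are given as levels.

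Polyamines are small positively charged molecules, putrescine, spermidine and spermine, that bind nucleic acids and are needed for growth. Ornithine decarboxylase (Odc1) makes putrescine from ornithine, spermidine synthase (Srm) and spermine synthase (Sms) add aminopropyl groups taken from decarboxylated S-adenosylmethionine, and the acetyltransferase Sat1 with the oxidases Smox and Paox runs the route backwards. Antizymes (Oaz1, Oaz2) bind ornithine decarboxylase and send it to the proteasome, their translation needs a ribosomal frameshift that polyamines promote, and the antizyme inhibitor Azin1 frees the enzyme again. Odc1 is a well-known target of the growth-promoting transcription factor MYC.

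BA/F3 is an established mouse hematopoietic line that needs interleukin 3 and is often used as a stand-in for early B cells. Title, genotype and source name assign 2 libraries to cells in which the human ETV6-RUNX1 (TEL-AML1) fusion can be induced (genotype hsa ETV6-RUNX1 +) and 2 to cells without it (hsa ETV6-RUNX1 -). The design text calls the control lines empty vector lines, and whether either line is a single clone is not given in the sources used here. All cells, controls included, had mifepristone, the inducer, at 32.5 pM for 16 h, so every comparison is between induced cultures. The design text and titles speak of chromatin immunoprecipitation, but the protocols describe total RNA and the values were read as RNA levels.

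The labels conflict, and the results for the polyamine genes are therefore given for each reading of them. In the description field the library titled ETV6-RUNX1 replicate 1 is a control and the library titled control replicate 1 expresses the fusion; for the replicate 2 libraries description and title name the same condition. Libraries are named here by title, and a difference is always fusion minus control on the log2 scale, either "by title" or "by description". The fusion is human and whether the mouse probe sets see it is not known. The brightest Runx1 probe set read 7.50 and 8.98 in the libraries titled ETV6-RUNX1 replicates 1 and 2, and 8.73 and 8.40 in those titled control replicates 1 and 2, so the title groups overlapped, with a difference of -0.32 (SE 0.60), and the description groups did not. By description it was 0.90 (SE 0.38, limma adjusted p = 0.308), or 1.87-fold higher, and 25.3% of all tested probe sets were likewise higher without overlap. Each library had 17517 to 17688 probe sets at 4 or above, and 54.8% to 55% of its probe sets within 0.5 of the lowest value on the array, 2.23, where a value is background.

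Markers of early B cells were mostly below the filter. Of 9 such markers on the array 1 was tested, Cd79b, a B cell receptor chain, at 8.31 to 8.81, while Pax5, Ebf1, Vpreb1, Rag1 and Il7r lay within 0.5 of the lowest value in all libraries. Of 6 markers of interleukin 3 dependent cells 5 were tested. The interleukin 3 receptor chain genes Csf2rb, Csf2rb2 and Il3ra read 14.08 to 14.78, 13.41 to 13.97 and 6.58 to 7.18. The leukocyte antigen genes Ptprc and Spn read 12.55 to 13.40 and 10.51 to 11.53. Kit, the remaining marker of that list, was at background in all libraries, as were all 4 T cell markers. The summed levels of several marker lists differed by description and are given beside the polyamine results.

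The promoters of 3 genes are shown because their RNA took 3 different courses under the description field: lower for Odc1, higher for Sat1 and within 0.06 of each other in all libraries for Oaz1. RefSeq promoter entries of build GRCm38.p6 were found for 7 of the 9 genes. Srm and Azin1 had none, so their promoters were not searched. The 250 bases before the start site are printed 5′ to 3′. They lie at chr12:17544623-17544872 on the plus strand for Odc1, chrX:155216450-155216699 on the minus strand for Sat1 and chr10:80826406-80826655 on the plus strand for Oaz1. Capitals mark 3 searched motifs on either strand: TGTGGT (reverse ACCACA), a core sequence bound by RUNX proteins, CACGTG, the E-box bound by MYC and its partner MAX, and GGGCGG (reverse CCGCCC), the GC box.
Odc1 promoter: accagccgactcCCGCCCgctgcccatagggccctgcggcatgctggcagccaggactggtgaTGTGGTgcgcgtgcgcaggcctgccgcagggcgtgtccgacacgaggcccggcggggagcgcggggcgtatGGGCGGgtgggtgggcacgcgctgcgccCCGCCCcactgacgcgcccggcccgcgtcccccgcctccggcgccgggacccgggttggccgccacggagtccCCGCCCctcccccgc
Sat1 promoter: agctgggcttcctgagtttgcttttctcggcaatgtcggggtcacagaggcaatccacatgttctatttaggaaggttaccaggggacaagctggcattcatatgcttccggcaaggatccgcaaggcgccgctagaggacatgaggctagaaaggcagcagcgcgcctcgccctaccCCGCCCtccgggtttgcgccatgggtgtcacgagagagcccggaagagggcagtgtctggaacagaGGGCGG
Oaz1 promoter: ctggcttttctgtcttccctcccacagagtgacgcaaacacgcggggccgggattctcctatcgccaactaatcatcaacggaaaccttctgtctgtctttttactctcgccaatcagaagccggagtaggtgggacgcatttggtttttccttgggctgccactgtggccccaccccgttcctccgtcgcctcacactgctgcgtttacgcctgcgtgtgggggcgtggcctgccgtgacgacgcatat

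TGTGGT occurred 1 time in the Odc1 window, with its first base at -187 from the start site, and in neither of the other printed windows. It occurred in 14.0% of all 32851 promoter entries over the same length. Among the other members with an entry it was found in those of Paox alone, on the minus strand. CACGTG was in none of the 3 printed windows, against 6.0% of all entries. Among the members with an entry it was found in 1 of the Sms entries, at -196. GGGCGG occurred 4 times in the Odc1 window, 2 times in that of Sat1 and 0 times in that of Oaz1, and 32.7% of all entries held it. G and C made up 80% of the Odc1 window, 59.6% of that of Sat1 and 58% of that of Oaz1, against a median of 52.4% over all entries. These matches describe the letters of the windows alone. Sequence after the start site was not searched, so a motif missing from a window may lie elsewhere in the gene. Binding was not measured here.

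By title, no polyamine gene separated fusion from control libraries. In limma 0 of the 10 tested polyamine probe sets reached the adjusted threshold of 0.05 (lowest adjusted p = 1), 0 of 10 had an unadjusted limma p under 0.05, and 0 of 10 had groups that did not overlap. Over all 17720 tested probe sets the shares were 0%, 0.282% and 10.7%. The median difference by title was 0.13 over the 10 polyamine probe sets and -0.01 over all tested ones.

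By description, Odc1 and Srm read lower and Sat1 read higher in the libraries called fusion-expressing, each by more than 2-fold at every tested probe set and without overlap. No probe set of these or the other polyamine genes passed the threshold (lowest adjusted p in limma = 0.144), so none is called changed; over the whole array 2 probe sets, 0.0113%, passed. Of the 10 tested polyamine probe sets 5 had an unadjusted limma p under 0.05, 4 lower and 1 higher, against 19.7% of all tested, 9.14% lower and 10.6% higher. Groups did not overlap at 7 probe sets on the lower side, where 25.1% of all tested did, and at 1 on the higher side, where 25.3% did. With a difference of at least 2-fold as well, there were 4 on the lower side against 3.71% of all tested, and 1 on the higher side against 5.51%. The 4 belong to 2 genes, with 3 from Odc1 alone, so they are not 4 separate observations. The genes were also chosen with the array's results known.

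**Figure D1:**
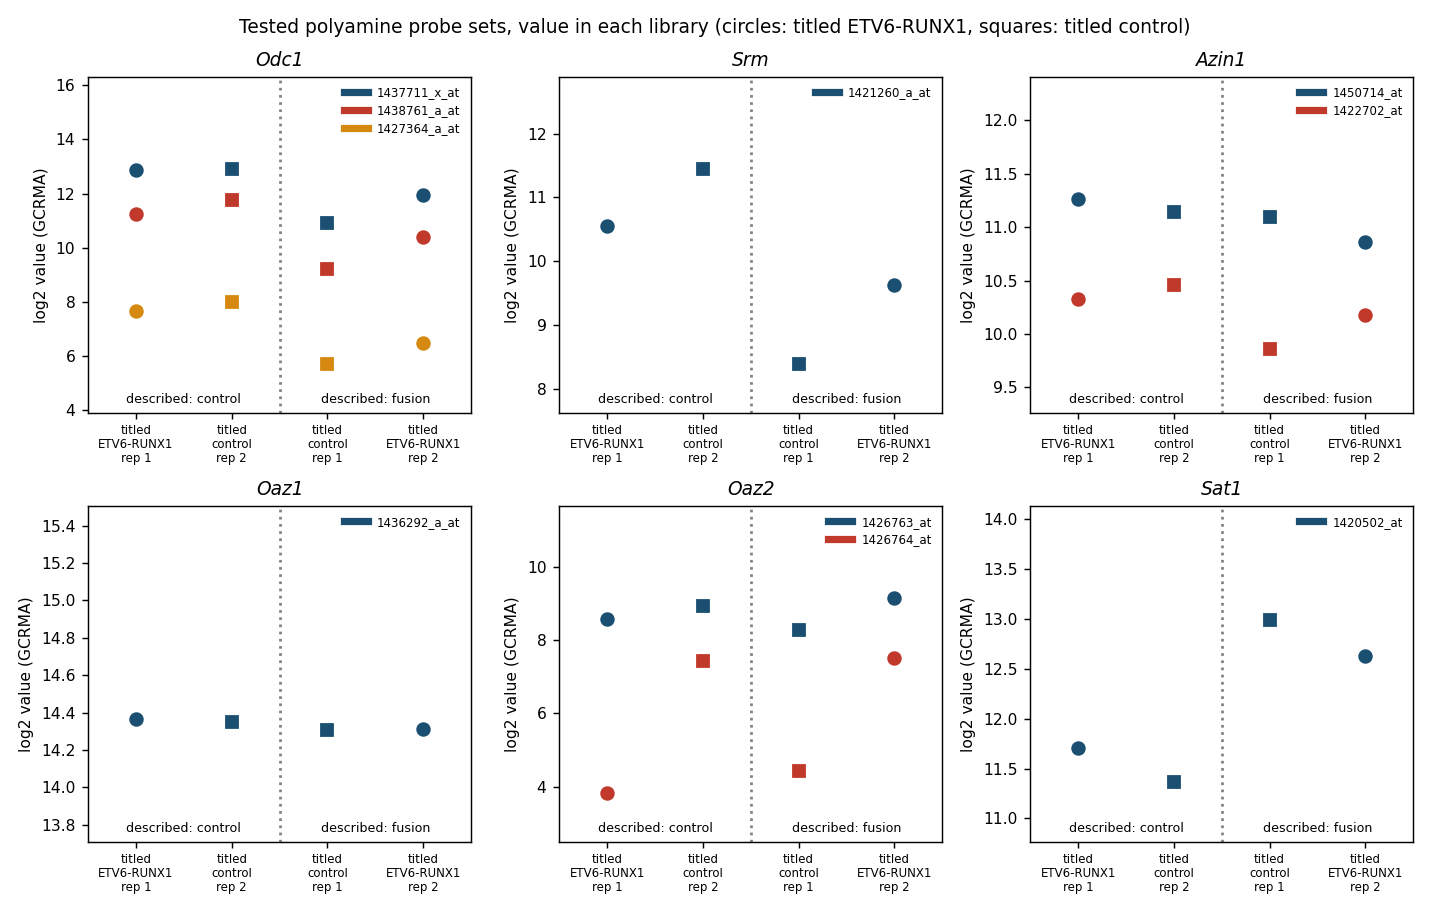
Log2 value (vertical axis, own range in each panel) of every tested polyamine probe set in each of the 4 libraries (horizontal axis), with the libraries described as control on the left of the dotted line and those described as fusion-expressing on the right. Circles are libraries titled ETV6-RUNX1, squares libraries titled control, and colours are probe sets; Odc1 and Srm sit lower on the right, Sat1 sits higher there, and Oaz2 splits by replicate number instead.

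Among the biosynthetic genes, Odc1, which encodes the first and usually rate-limiting enzyme, was measured by 3 probe sets whose libraries stood in the same order at each. The brightest, 1437711_x_at, read 12.88 and 11.94 in the libraries titled ETV6-RUNX1 replicates 1 and 2, and 10.92 and 12.89 in those titled control replicates 1 and 2. The next, 1438761_a_at, read 11.25 and 10.38 in the titled fusion libraries and 9.23 and 11.77 in the titled controls. The dimmest, 1427364_a_at, read 7.65 and 6.47 in the titled fusion libraries and 5.70 and 8.01 in the titled controls. In all 3, control replicate 1 was lowest, ETV6-RUNX1 replicate 2 was next, and control replicate 2 was highest, so the title groups overlapped and the description groups did not. The suffix x marks a probe set in which some probes may also match other sequences.

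By title the Odc1 differences were 0.50 (SE 0.81), 0.32 (SE 1.0) and 0.20 (SE 0.98), from the brightest to the dimmest probe set. Each was smaller than its standard error, with an adjusted p = 1 in limma. By description the brightest read 11.43 ± 0.72 (SD, n = 2) in fusion libraries against 12.89 ± 0.01 in controls, which gives -1.45 (SE 0.38, 95% interval -2.54 to -0.37, limma adjusted p = 0.190). The middle and dimmest probe sets differed by -1.71 (SE 0.47) and -1.74 (SE 0.35), with limma adjusted p-values of 0.200 and 0.159. The 3 probe sets measure the same gene and gave the same sign. As ratios the differences are 2.74-fold, 3.26-fold and 3.35-fold lower. In the array as a whole 1.22%, 0.553% and 0.502% of tested probe sets had a lower difference by description. In cultures measured whole, fewer cells that express a gene and less RNA in each cell cannot be told apart.

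Srm, spermidine synthase, was measured by 1421260_a_at alone. It read 10.55 and 9.63 in the libraries titled ETV6-RUNX1 replicates 1 and 2, and 8.39 and 11.44 in those titled control replicates 1 and 2. The libraries stood in the order seen for Odc1, and the 2 titled controls were the lowest and the highest of all. By title the difference was 0.17 (SE 1.19, limma adjusted p = 1). By description it read 9.01 ± 0.88 (SD, n = 2) in fusion libraries and 10.99 ± 0.63 in controls, so it differed by -1.99 (SE 0.57, 95% interval -3.61 to -0.36, limma adjusted p = 0.207), which is 3.96-fold lower. Of all tested probe sets 0.327% had a lower difference.

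**Figure D2:**
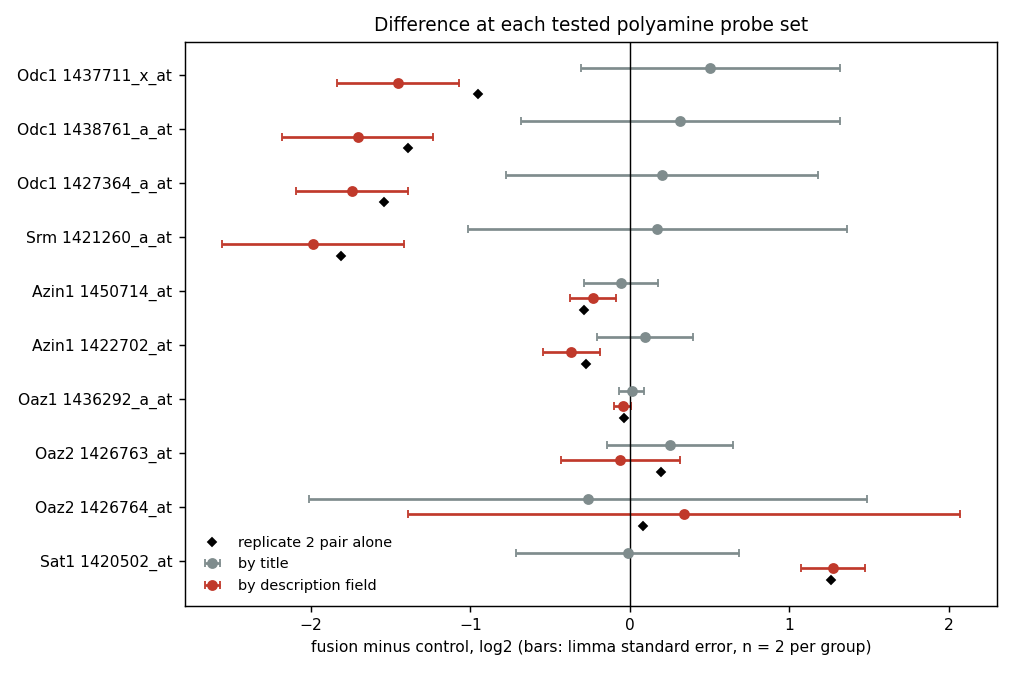
Fusion minus control difference on the log2 scale (horizontal axis) at each tested polyamine probe set (vertical axis), by title in grey and by description in red with limma standard errors from 2 libraries per group, and in the replicate 2 pair alone as black diamonds. The red points of Odc1 and Srm lie between -1.99 and -1.45 and that of Sat1 at 1.27, while every grey bar crosses 0.

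In catabolism, Sat1, which encodes the spermidine and spermine acetyltransferase that starts polyamine breakdown and export, went the opposite way to Odc1 and Srm. Its probe set 1420502_at read 11.70 and 12.63 in the libraries titled ETV6-RUNX1 replicates 1 and 2, and 12.99 and 11.37 in those titled control replicates 1 and 2. Control replicate 1, the lowest library for Odc1 and Srm, was the highest for Sat1, and control replicate 2, the highest there, was the lowest here. By title the difference was -0.01 (SE 0.70, limma adjusted p = 1). By description it read 12.81 ± 0.26 (SD, n = 2) in fusion libraries and 11.53 ± 0.24 in controls, so it differed by 1.27 (SE 0.20, 95% interval 0.70 to 1.85, limma adjusted p = 0.144), or 2.42-fold higher. Of all tested probe sets 96.5% had a lower difference.

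Of the oxidase genes only Smox had probe sets, and Paox was not measured. Both Smox probe sets, for spermine oxidase, lay at background, 1424268_at at 2.26 and 1446509_at at 2.23 in all 4 libraries. Neither was tested, and a level below what the array separates from background is not shown to be absent.

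Of the regulators, Oaz1, antizyme 1, varied least of all tested polyamine probe sets. Its probe set 1436292_a_at read 14.37 and 14.31 in the libraries titled ETV6-RUNX1 replicates 1 and 2, and 14.31 and 14.35 in those titled control replicates 1 and 2. The spread over all 4 libraries was 0.06. The difference was 0.01 by title (SE 0.08, 95% interval -0.21 to 0.23) and -0.05 by description (SE 0.05, 95% interval -0.20 to 0.11, limma adjusted p = 0.690). The description groups did not overlap, as was so on the lower side for 25.1% of all tested probe sets. The highest value of any probe set on the array was 16.3.

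Azin1, the antizyme inhibitor, had small differences at its 2 tested probe sets. The brighter, 1450714_at, read 11.27 and 10.86 in the libraries titled ETV6-RUNX1 replicates 1 and 2, and 11.09 and 11.15 in those titled control replicates 1 and 2. The other, 1422702_at, read 10.32 and 10.18 in the titled fusion libraries and 9.86 and 10.46 in the titled controls. The lowest library was ETV6-RUNX1 replicate 2 at the first and control replicate 1 at the second, so the probe sets did not order the libraries alike. By description they differed by -0.23 (SE 0.14, 95% interval -0.64 to 0.18) and -0.37 (SE 0.18, 95% interval -0.87 to 0.14), and by title by -0.06 (SE 0.23) and 0.09 (SE 0.30). None passed in limma, where the lowest adjusted p of the 4 was 0.355. The third probe set, 1430984_at, lay at background, 2.40 to 2.42.

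Oaz2, antizyme 2, followed the replicate number and neither label of condition. Its brighter probe set, 1426763_at, read 8.58 and 9.13 in the libraries titled ETV6-RUNX1 replicates 1 and 2, and 8.27 and 8.94 in those titled control replicates 1 and 2. The dimmer tested probe set, 1426764_at, read 3.83 and 7.50 in the titled fusion libraries and 4.43 and 7.42 in the titled controls. At both, the replicate 2 libraries lay above the replicate 1 libraries without overlap, as 15.4% of all tested probe sets did. The difference, replicate 2 minus replicate 1, was 0.61 at the brighter and 3.34 at the dimmer, so the probe sets disagree on its size. Of all tested probe sets 16, or 0.0903%, had a replicate difference of at least 3.34.

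Between fusion and control the Oaz2 probe sets differed by 0.25 (SE 0.40) and -0.26 (SE 1.75) by title and by -0.06 (SE 0.37) and 0.34 (SE 1.73) by description. With intervals of -4.58 to 5.26 by description at the dimmer, a large difference could not be detected there. The 3′ minus 5′ differences of the Gapdh and Actb controls and of the phe labelling spike also separated by replicate number, but by little. That of the Gapdh control probe sets was -0.31 and -0.30 in the replicate 1 libraries and -0.34 and -0.37 in the replicate 2 libraries. That of the Actb control probe sets was 0.70 and 0.64 against 0.63 and 0.63. The phe spike, a transcript added to the RNA, went the other way at 1.13 and 1.08 against 1.30 and 1.17. The dap, lys and thr spikes overlapped between the replicate numbers. The part of these small differences in the Oaz2 values was not tested. The remaining Oaz2 probe set, 1442541_at, was below the filter at 2.84 to 3.08.

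**Figure D3:**
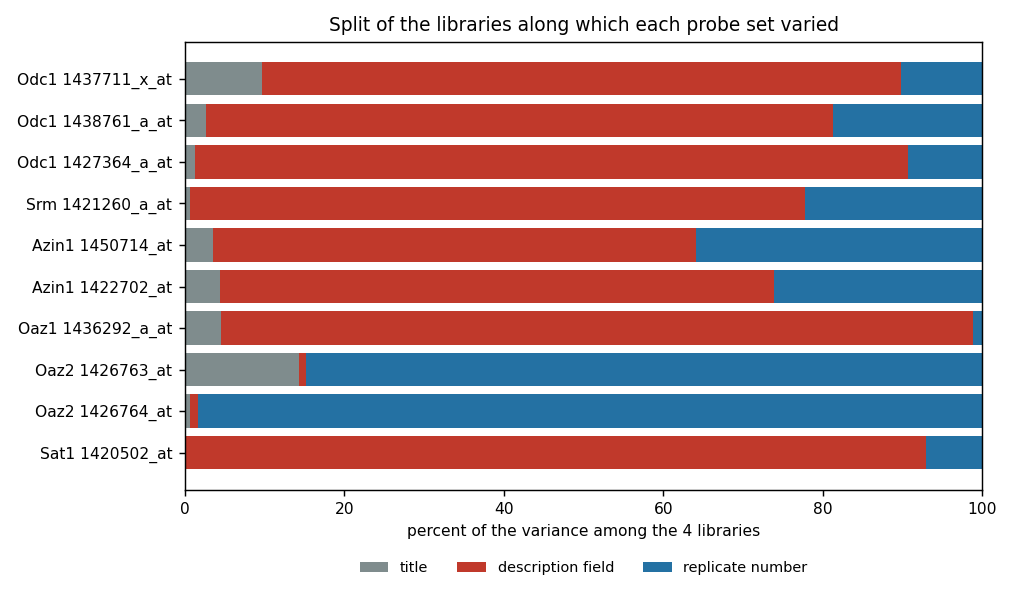
Share of the variance among the 4 libraries (horizontal axis, percent) that lay along the title split, the description split and the replicate number, for each tested polyamine probe set (vertical axis). The description split held 60.5% to 94.2% at the probe sets of Odc1, Srm, Azin1, Oaz1 and Sat1, and the replicate number held 84.8% and 98.4% at those of Oaz2.

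The 3 ways to split 4 libraries into pairs divide each probe set's variance completely. For the Odc1 probe sets 78.6% to 89.5% lay along the description split, for Srm 77.1% and for Sat1 92.9%. The title split held 0.0117% for Sat1, 0.581% for Srm and at most 9.64% for Odc1. Over all tested probe sets the description split held 53.9%, the replicate number 36.5% and the title split 9.61%. Over the 10 polyamine probe sets pooled the shares were 48.7%, 49.3% and 1.99%. Pooling weighs a probe set by its spread, and the dimmer tested Oaz2 probe set spread most, over 3.68. With 98.4% of its variance along the replicate number, it made up most of the pooled replicate share. Oaz1 had 94.2% along the description split, but of a spread of only 0.06, so a share says nothing of size.

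Taken within each replicate, the titled difference was of opposite sign at 9 of the 10 tested polyamine probe sets, as at 74.9% of all tested. For Odc1 it was 1.96, 2.02 and 1.95 in replicate 1 and -0.95, -1.39 and -1.54 in replicate 2, from the brightest probe set to the dimmest. For Srm it was 2.16 in replicate 1 and -1.81 in replicate 2, and for Sat1 -1.29 and 1.26. The brighter Oaz2 probe set was the 1 that kept its sign, at 0.31 and 0.19. In replicate 2, where all labels name the same condition, 3 of the 10 probe sets, from Odc1 and Srm, were lower by 2-fold or more in the fusion library, against 4.7% of all tested. Sat1, at 2.39-fold, was the 1 at least 2-fold higher, against 6.74%. This pair has 1 library per condition and no replicate check, and it is part of the description grouping.

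**Figure D4:**
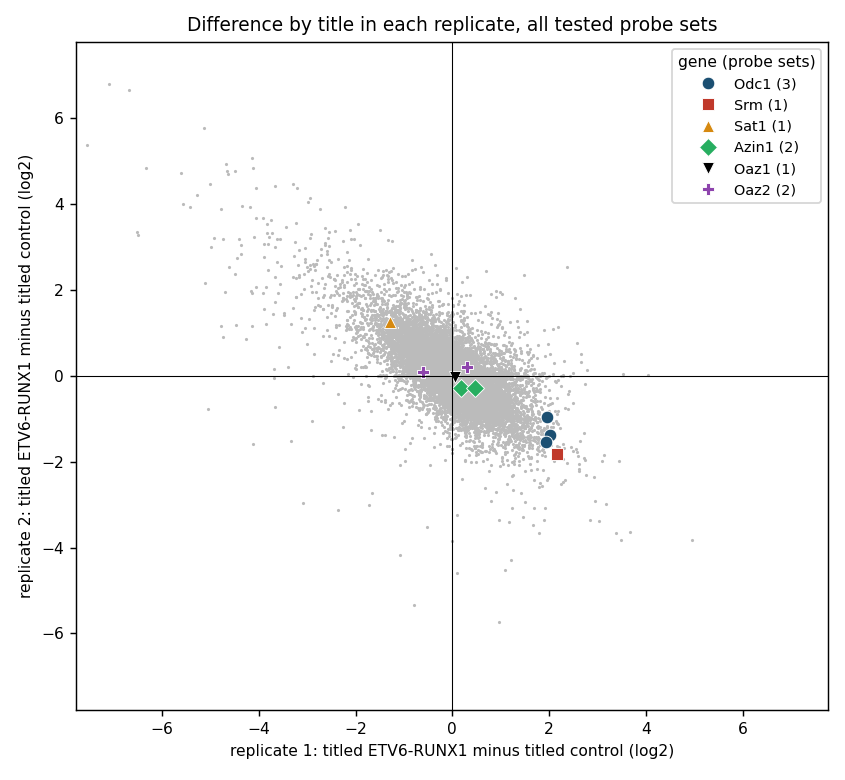
Titled ETV6-RUNX1 minus titled control on the log2 scale in replicate 1 (horizontal axis) and in replicate 2 (vertical axis) for all 17720 tested probe sets (grey) and the 10 polyamine probe sets (coloured by gene). Odc1 and Srm lie at the lower right, near 2 and between -1.81 and -0.95, and Sat1 at the upper left, at -1.29 and 1.26.

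Other features of the libraries moved with the description split. The summed log2 level of 10 mast cell, basophil and myeloid markers was 52.6 and 58.4 in the described fusion libraries and 39.5 and 49.8 in the described controls. Of the 5 tested, 3 were at least 2-fold higher by description without overlap, Fcer1a, Ms4a2 and Hdc, against 6.41% of genes. Fcer1a, an IgE receptor chain, read 7.69 and 9.91 against 2.37 and 2.32, so it passed the filter through the described fusion libraries alone. The separation of the summed level rests on Fcer1a, which differed by 6.46 by description. Without this gene the sums of the list overlap between the description groups. The other two tested, Gata2 and the myeloid gene Mpo, differed by 0.20 (SE 0.31) and -1.49 (SE 2.15), both with overlap. Prg2, an eosinophil granule protein gene below the filter, went the other way at 2.36 and 2.51 against 3.53 and 6.27, and Elane and Ctsg were at background in all libraries. The summed level of 5 stromal markers was 20.1 and 20.1 against 18.3 and 19.1, with 4 of the 5 at background and Acta2 at 10.76 and 10.80 against 9.00 and 9.79. Early B cell markers summed to 30.2 and 28.8 against 27.6 and 28.1. Cd79b, the only one tested, read 8.44 and 8.81 against 8.31 and 8.62, with overlap. By title Cd79b differed by -0.34 (SE 0.25), lower without overlap, as 5.71% of genes were. Below the filter, Cd79a read 4.47 and 2.89 against 2.69 and 2.89, and Blnk 2.92 and 2.62 against 2.23 and 2.23. Erythroid and megakaryocyte markers summed to 25.3 and 25.5 against 25.6 and 27.7, so these sums barely separated. Of the 3 tested in the last list, the erythroid factor gene Klf1 read 5.52 and 5.93 against 7.39 and 8.80, the erythropoietin receptor gene Epor was higher at 4.75 and 5.81 against 4.58 and 4.18, and Itga2b differed by 0.25 (SE 0.63) with overlap. The sums of the interleukin 3 and T cell lists overlapped between the description groups, and by title the sums of all 6 lists overlapped. Within the interleukin 3 list Spn differed by -0.66 (SE 0.21) by description and Csf2rb by 0.42 (SE 0.20), both without overlap. Over genes 25.6% were lower and 30.3% higher in this way, and the other tested members of the list overlapped. The dap labelling spike, a transcript added to the RNA, had a 3′ minus 5′ difference of 4.43 and 3.71 against 3.10 and 3.19, and the lys and thr spikes did not overlap either, whereas the phe spike, Gapdh and Actb did. The part of these in the Odc1, Srm and Sat1 differences was not tested.

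Myc, given for reference as a regulator of Odc1, read 10.38 and 7.96 in the libraries titled ETV6-RUNX1 replicates 1 and 2, and 7.27 and 9.94 in those titled control replicates 1 and 2. By title it differed by 0.56 (SE 1.34) and by description by -2.55 (SE 0.33, limma adjusted p = 0.132), so it did not pass. The description groups did not overlap, as was so on the lower side for 25.1% of all tested probe sets. The sign by description was that of Odc1 and Srm, but the highest Myc library was ETV6-RUNX1 replicate 1 where theirs was control replicate 2.

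Of the genes next to these enzymes in the pathway, 24 of 27 listed had a probe set of their own and 14 were tested at their brightest. None passed in limma by title or by description, with 0 and 2 of the 14 at an unadjusted limma p under 0.05. Over all tested probe sets the shares at that unadjusted p were 0.282% by title and 19.7% by description. By title 0 of 14 had groups that did not overlap, where 3.96% of 8892 genes did on the higher side and 5.71% on the lower, and the differences lay between -0.29 for Slc3a2 and 0.41 for Mtap. By description 4 were higher and 6 lower without overlap, against 30.3% and 25.6% of genes, and 0 of 14 reached 2-fold, against 6.41% higher and 3.67% lower. The median difference by description was -0.18, against 0.01 over genes.

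Hypusine, an amino acid built from spermidine on the translation factor eIF5A, links polyamines to protein synthesis. Eif5a, its carrier, read 15.08 and 14.51 in the libraries titled ETV6-RUNX1 replicates 1 and 2, and 14.18 and 15.21 in those titled control replicates 1 and 2. Its libraries stood in the order of those of Odc1, with a difference of 0.10 (SE 0.44) by title and -0.80 (SE 0.14, limma adjusted p = 0.146) by description. By description Dhps, deoxyhypusine synthase, differed by -0.54 (SE 0.24), also without overlap, and Dohh, which completes hypusine, by -0.57 (SE 0.80) with overlap. Eif5a2 was at background.

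Salvage of methylthioadenosine, the by-product of the Srm and Sms reactions, had members on either side by description. Mtap, the phosphorylase that opens the route, differed by 0.83 (SE 0.37) and Apip by 0.45 (SE 0.23), while Mri1 differed by -0.82 (SE 0.21) and Enoph1 by -0.71 (SE 0.29). Adi1, the next enzyme, differed by 0.04 (SE 0.14). All 5 had groups that did not overlap by description, 3 higher and 2 lower, and none passed. Over genes 30.3% were higher and 25.6% lower without overlap. By title they differed by -0.06 to 0.41, all with overlap.

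Genes that supply the substrates differed by at most 0.40 by description. Oat, which interconverts ornithine and glutamate semialdehyde, differed by 0.23 (SE 0.21) by description and the arginine transporter gene Slc7a1 by -0.40 (SE 0.29), both with overlap. Mat2b, a regulatory subunit of methionine adenosyltransferase, differed by -0.07 (SE 0.13), without overlap. By title the 3 differed by -0.16 to 0.13. Arg1, Arg2 and Agmat were at background, and Mat2a, Amd1 and Amd2 had no probe set of their own in the annotation used here.

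For transport, by description, Atp13a3, a polyamine transporter, differed by 0.27 (SE 0.27) with overlap and Atp13a2, its lysosomal relative, by 0.23 (SE 0.18) without. Slc3a2, a subunit of amino acid exchangers that has been linked to polyamine export, differed by -0.29 (SE 0.23), also without overlap. By title the 3 differed by -0.29 to 0.03. The acetyltransferase relatives Sat2 and Satl1, the third antizyme gene Oaz3 and the second inhibitor gene Azin2 lay at background in all libraries, as did the transporter genes Slc18b1 and Slc47a1.

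**Figure D5:**
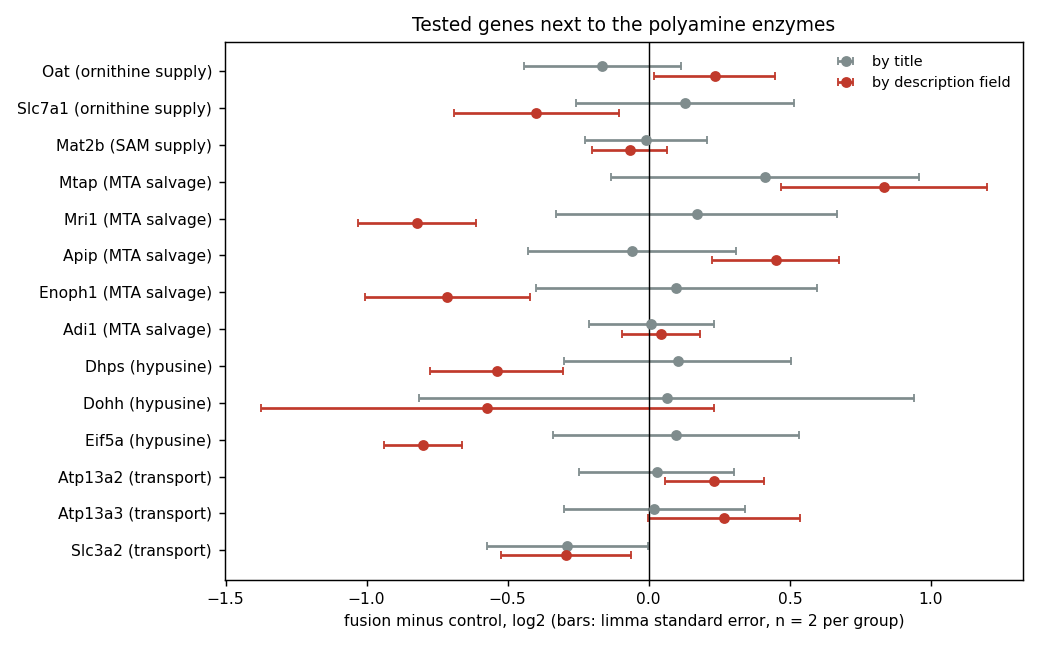
Fusion minus control difference on the log2 scale (horizontal axis) of the 14 tested pathway neighbours (vertical axis, with their role), by title in grey and by description in red, with limma standard errors from 2 libraries per group. Eif5a, Mri1 and Enoph1 lie lowest by description, between -0.82 and -0.71, and Mtap highest at 0.83; none passed the threshold.

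The genes most like Odc1 over the 4 libraries were found by the smallest Euclidean distance between mean-centred log2 values, from 8891 other genes at their brightest probe set. They were Cad at a distance of 0.11, Prodh at 0.14, Pus7 at 0.17, Slc16a1 at 0.19 and Timm9 at 0.20. Cad read 9.97 and 9.02 in the libraries titled ETV6-RUNX1 replicates 1 and 2, and 7.98 and 9.85 in those titled control replicates 1 and 2. Srm lay at 0.83 from Odc1, with 4.27% of genes closer, and Sat1 at 2.91, with 95.4% closer. With 4 libraries many genes share a profile, and the distance is a description.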

How the data were processed

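Total RNA from BA/F3 cells was labelled with a 3′ in vitro transcription kit, per the labels' protocols. The deposited table holds log2 values that the authors computed by GCRMA (version 2.28.0, per the submitters' processing notes), a sequence-based background correction followed by normalization and 1 summary value per probe set. The log2 scale was inferred from the range of the values. The authors' filters and batches were not known here, and scanner files were not used. Of 45101 probe sets 64 controls were left out, and the 17720 with a mean of at least 4 over the 4 libraries were tested. Two-sided tests of 2 against 2 libraries used limma 3.58.1 under R 4.3.3, with lmFit and a trended eBayes step. P-values were adjusted by Benjamini-Hochberg over all tested probe sets, with a threshold of 0.05. The fit leaves 2 residual degrees of freedom, and intervals are limma's at 95% without adjustment. The fit was also run on simulated data to check that planted differences were recovered on average. That simulated noise was independent between libraries, without a split by replicate number, so the run does not vouch for the p-values here. Nothing says that replicates came from separate cultures, so p-values reflect the spread among these libraries alone, which may be technical, and their number limits the precision. Symbols came from the platform annotation; all 14 polyamine probe sets matched a RefSeq gene and 0 symbols changed.

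Members, pathway neighbours, markers and the naming rule were chosen with earlier results of these data known. Every polyamine probe set is named, pathway neighbours may be named with their values, Myc is given once by its brightest probe set, and the 5 genes nearest to Odc1 are named. Runx1 and the marker genes quoted were named after their values were seen. Alternatives were the filter, the trend, the scaling, the replicate block, the mean over a gene's probe sets, the replicate 2 pair alone and leaving out each library.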

Additional observations from a re-analysis of the deposited data

How the results depend on the processing

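None of the polyamine probe sets or pathway neighbours passed the threshold under any alternative run, in either grouping. By description the Odc1, Srm, Azin1, Oaz1 and Sat1 differences kept their sign throughout. The number of probe sets called over the array was less steady: 0 by title became 2 when grouped by description, and 2 by description became 0 without the filter, 10 with each library centred on its median, 14 with quantile normalization and 0 to 0 with any library left out. The lowest adjusted p of a polyamine probe set by description was 0.0593 to 0.481 over the alternatives.

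By title, signs were unstable. Grouped by description the values became -1.45, -1.71 and -1.74 for Odc1, -1.99 for Srm, -0.37 for the dimmer tested Azin1 probe set, -0.0463 for Oaz1, -0.0596 and 0.34 for Oaz2 and 1.27 for Sat1. With a library left out they ran from -0.48 to 1.49, -0.95 to 1.59 and -0.95 to 1.35 for Odc1, -1.35 to 1.70 for Srm, -0.26 to 0.15 and -0.20 to 0.39 for Azin1, -0.0156 to 0.0360 for Oaz1, -0.0842 to 0.59 and -2.10 to 1.58 for Oaz2 and -0.83 to 0.80 for Sat1. Averaging a gene's probe sets gave 0.0187 for Azin1 and -0.00423 for Oaz2, and quantile normalization gave -0.00105 for Oaz1. By description Oaz2 ran from -0.49 to 0.37 and from -1.46 to 2.14 with a library left out, and its mean over probe sets was 0.14. The cause was not tested.

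The replicate numbers are not stated to mark shared cultures. Deviations of same-numbered libraries correlated across probe sets at -0.20 by title and 0.59 by description. With the replicate block 0 probe sets passed by title and 0 by description, where the number at an unadjusted limma p under 0.05 was 48 and 5579. With crossed numbers, which pair the libraries as the description groups do, 0 passed by title. A lone library in an arm was assumed to vary like the other arm.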
